A study of Homo sapiens with 9 samples.

Results

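MYC, MAX and MXD network genes encode the transcription factors that share or stand beside the partner MAX at E-box DNA. The 10 genes MYC, MAX, MXI1, MXD1, MXD3, MXD4, MNT, MLX, MLXIP and MGA were taken by symbol from the 15354 genes of a deposited RNA-seq table, where each had a row. The cells were HCT116, an established human colorectal cancer line. They were reverse transfected at 25 nM with a control siRNA, with siRNA A or with siRNA B, both designed against the long non-coding RNA SNHG5, and 3 libraries were made for each of the 3 groups. The study asked which transcripts change when SNHG5 is depleted. All values come from this single line, and no untransfected cells were analysed here.

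SNHG5 itself went against the labels. Levels are given as TMM-scaled CPM, which are reads per gene relative to the library total (CPM) after scaling between libraries by the trimmed mean of M values (TMM), and differences are on the scale of log2(TMM-scaled CPM + 1). A difference is named as called where limma gave an adjusted p under 0.05. It stood at 26.5 ± 4.66 TMM-scaled CPM in the control libraries, at 65.9 ± 6.45 in those labelled siRNA A and at 47.5 ± 2.40 in those labelled siRNA B (mean ± SD, n = 3), so it was higher, not lower, with each siRNA label. The log2 difference from control was 1.29 ± 0.13 (SE, adjusted p = 1.9e-05, limma) with the A label and 0.83 ± 0.13 (adjusted p = 0.00059) with the B label, and both remained positive with library totals alone, at 0.93 and 0.63. The groups are therefore called A-labelled and B-labelled below, and no direction is read as an effect of less SNHG5. Library totals ran from 15566530 reads, in A-labelled replicate 2, to 23277549 reads. Of 8 markers of colon epithelium 7 had a row, and LGALS4 is not analysed here. Their summed level ran from 1768 to 1920 TMM-scaled CPM in control, from 3067 to 4048 with the A label and from 2369 to 2524 with the B label. Most of it came from the keratin genes KRT8, KRT19 and KRT18, with control means of 788, 456 and 367. EPCAM was lower with the A label, at 179 ± 20.5 in control and 122 ± 9.16 (−0.55, adjusted p = 0.0012). With the B label EPCAM was not called, and CDH1 was not called with either label. VIL1 was called higher with the B label alone (0.50). Of the 7 markers, 3 were higher, 2 lower and 2 not called with the A label. With the B label 2 were higher, 1 lower and 4 not called. These are 71.4% and 42.9% of the markers, beside 51.4% and 34.0% of all tested genes called. The keratin gene KRT8 was higher with both labels, by 1.06 and 0.59 on the log2 scale. CDX2, a transcription factor of the intestine, was lower with both, by −0.52 and −0.43 (adjusted p = 0.0041 and 0.0182), and its B-label call was lost without control replicate 1 or 3 or B-labelled replicate 3 (adjusted p from 0.0523 to 0.0719). Of 8 markers of other cell types only the collagen gene COL1A1 had a row, at 15.3 to 17.5 in control, 10.8 to 13.7 with the A label and 8.72 to 9.88 with the B label (−0.46 and −0.79). The part of these markers in the results below was not tested.

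In this network MYC pairs with MAX through a basic helix-loop-helix leucine zipper and activates transcription from E-boxes. The MXD proteins (MXD1, MXI1, MXD3 and MXD4), MNT and MGA pair with MAX as well, compete for the same sites, and repress, the MXD proteins and MNT through the SIN3 corepressor. MLX and MLXIP (also called MondoA) form a parallel branch that senses glucose metabolites, and MLX can also pair with some MXD proteins and with MNT. In colorectal cancer MYC is a well known target of the WNT pathway.

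The sequence these factors share is the E-box CACGTG, which reads the same on both strands, so a single search covers both. RefSeq promoter windows, from 250 bases before to 50 bases after each gene's start on GRCh38.p14, were searched for these letters. Windows were found for all 9 members other than MYC, whose window was not searched, and 3 of the 9 held an E-box (33.3%). Of all 35116 RefSeq windows, 7.26% held it, and among the 10226 windows matched to tested genes 10.1% did. The stretches of 30 bases around the E-box, in capitals, are shown for the 3 members because they place members among genes that carry the network's own letters, on the strand of the gene and 5′ to 3′.
MXD4: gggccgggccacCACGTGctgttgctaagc
MNT: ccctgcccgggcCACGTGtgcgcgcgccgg
MLX: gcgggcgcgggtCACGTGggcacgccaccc
The MXD4 stretch lies at chr4:2262330-2262359 on the minus strand, with the E-box 238 bases before the start. The MNT stretch lies at chr17:2401236-2401265 on the minus strand, 193 bases before the start. The MLX stretch lies at chr17:42567038-42567067 on the plus strand, 50 bases before the start. A match is a description of these letters and not of a bound site.

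Per kilobase of exon, MYC was highest at 48.6 ± 4.58 TMM-scaled CPM per kb, followed by MLX at 24.3 ± 0.340, MXD3 at 13.3 ± 1.05 and MAX at 8.48 ± 0.445 (n = 3). MXI1 at 6.07 ± 0.515 and MLXIP at 6.0 ± 0.458 could not be placed in order, since their libraries overlapped. MGA at 3.52 ± 0.505, MNT at 1.90 ± 0.223, MXD4 at 1.43 ± 0.0710 and MXD1 at 1.10 ± 0.250 followed, each apart from its neighbours. The length used is the union of annotated exons, and whether another length would change the order was not tested. With the A label the order differed in MXI1 standing above MAX and MXD1 above MXD4, which stood last at 0.777 ± 0.165. MXD1 and MNT overlapped there, at 2.16 ± 0.162 and 2.11 ± 0.195. With the B label MAX stood next after MYC and MLX at 9.55 ± 0.176, above MXD3 at 6.57 ± 0.349. MXD1 stood above MXD4 with this label too, at 2.15 ± 0.0369 against 1.07 ± 0.0416, and MLXIP stood above MXI1. All 10 members passed the filter of 1 CPM in at least 3 libraries, and did so in all 9 libraries. The least covered value rested on 73 reads (MXD4, A label), for which the counting error is 11.7%.

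Against control, 6 of the 10 members were called with the A label and 5 with the B label by limma at an adjusted p of 0.05. Over all 13893 tested genes the shares called were 51.4% and 34.0%, and the members' shares lie near this background. With the A label MYC, MXI1, MXD1 and MLX were higher and MXD4 and MLXIP lower. With the B label MXD1 and MLX were higher, and MXI1, MXD3 and MLXIP lower. Between the labels, 5 members differed, with MYC, MXI1, MXD3 and MLXIP higher and MXD4 lower with the A label, against 37.1% of all genes. The groups did not overlap for 6, 8 and 6 members in these 3 comparisons, where 59.5%, 47.6% and 47.6% of all tested genes did not overlap. The members' median log2 difference was 0.19 with the A label and −0.23 with the B label, beside −0.023 and 0.0043 for all tested genes.

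**Figure D1:**
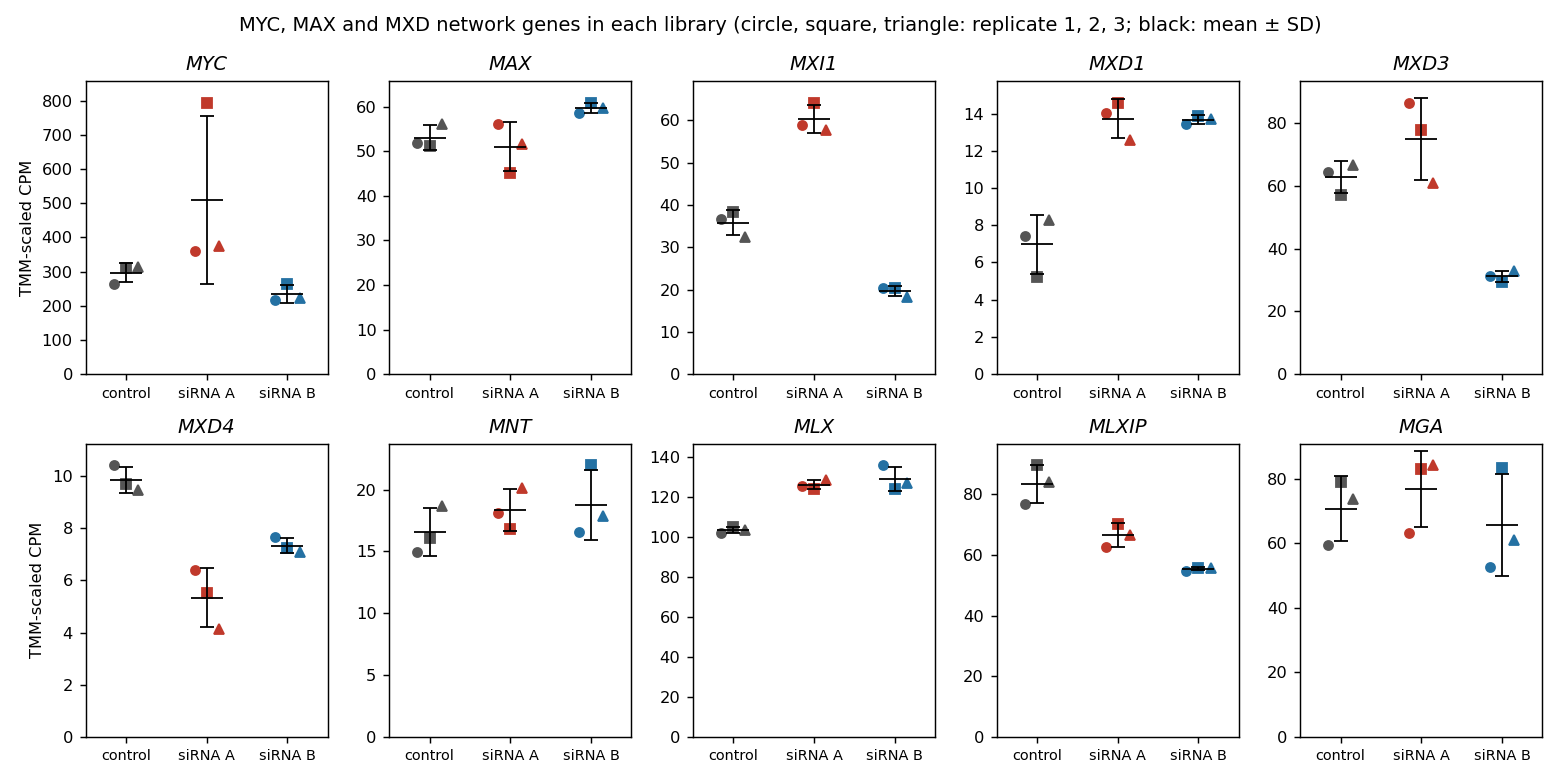
TMM-scaled CPM of each member (vertical axes, each from 0) in the 9 libraries by group, with circles, squares and triangles for replicates 1, 2 and 3 and black bars for the mean ± SD. A single A-labelled library lifts the MYC mean to 510, while the MXI1 and MXD3 libraries of the B label lie below all control libraries.

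The scale matters for the small differences. With library totals alone the median of all tested genes moved to −0.34 with the A label and to −0.18 with the B label, so differences are stated here on the TMM scale and the flips are named. Under totals the sign of the A-label difference turned negative for MXD3 (−0.12), MNT (−0.21), MLX (−0.081) and MGA (−0.25), and the sign of the B-label difference for MAX (−0.039) and MNT (−0.033). Of the members called under totals, 2 were higher and 3 lower with the A label, 1 higher and 4 lower with the B label, and 3 higher and 2 lower with the A than with the B label. Measured from the shifted median gene, the A-label differences under totals were 0.66 for MYC, 0.72 for MXI1, 0.92 for MXD1, −0.77 for MXD4 and 0.26 for MLX.

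MYC, the activator, stood at 264, 311 and 315 TMM-scaled CPM in control replicates 1, 2 and 3, at 360, 794 and 376 with the A label and at 218, 263 and 222 with the B label. Replicate 2 of the A label was more than all others, and its fellow A-labelled libraries lay just above control. The B-labelled libraries all lay below control, though the nearest pair was 263 and 264. The A-label mean was 1.72 times control (log2 difference 0.68 ± 0.24 SE, adjusted p = 0.0325), and the B-label difference was −0.34, with a 95% interval from −0.87 to 0.19 and adjusted p = 0.304. Between the labels MYC differed by 1.02 ± 0.24 (adjusted p = 0.00647), a call that was kept in every setting tried but moved to 0.65 without A-labelled replicate 2. Without A-labelled replicate 2 the A-label difference was 0.31 with an adjusted p of 0.0575, the B-label difference was −0.34 and was then called (adjusted p = 0.0339), and 5, 6 and 3 members were called in the 3 comparisons. The model shares a single spread per gene over the 3 groups. A-labelled replicate 2 therefore also entered the SE of 0.24 and the interval of the B-label difference. The A-label call was also lost without any one of control replicates 1, 2 or 3, at adjusted p of 0.0847, 0.0629 and 0.0598, and with totals alone, at a log2 difference of 0.32 and adjusted p of 0.232. MYC exons share 3.18% of their bases with the antisense non-coding gene CASC11.

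MAX, the common partner, stood at 51.8, 51.1 and 56.2 TMM-scaled CPM in the control-labelled libraries, at 56.1, 45.2 and 51.7 with the A label and at 58.7, 60.9 and 59.6 with the B label. The B-labelled libraries were all above control and above the A-labelled ones, but the log2 difference from control was 0.17 (95% interval −0.053 to 0.39, adjusted p = 0.222) and it was not called. The A-label difference was −0.060 (−0.28 to 0.16, adjusted p = 0.649). It was called only with library totals (CPM without TMM), at −0.42 (adjusted p = 0.00774), close to the shift of the median gene. FNTB and other genes on the opposite strand cover 16.1% of MAX exon bases, and the counting program's use of strand was not given in the sources used here.

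MXI1, a MAX-pairing repressor also called MXD2, moved in opposite directions. It stood at 36.7, 38.3 and 32.5 TMM-scaled CPM in the control-labelled libraries, at 59.0, 64.2 and 57.8 with the A label and at 20.3, 20.3 and 18.3 with the B label, so that no group overlapped another. MXI1 lies at chr10:111967363-112047123 on GRCh37. The log2 difference was 0.74 ± 0.10 (adjusted p = 0.00016) with the A label and −0.84 ± 0.10 (adjusted p = 0.00014) with the B label. The labels differed by 1.57 ± 0.10 (adjusted p = 3.98e-06), or 3.08 times between the means, and the calls were kept in every setting tried.

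MXD1, the first described MAD protein, was higher with both labels. Its values were 7.42, 5.21 and 8.30 TMM-scaled CPM in the control-labelled libraries, 14.0, 14.6 and 12.6 with the A label, and 13.4, 13.9 and 13.7 with the B label. All 6 A- and B-labelled libraries stood above the highest control. The log2 differences were 0.90 ± 0.15 with the A label (adjusted p = 0.00043) and 0.90 ± 0.15 with the B label (adjusted p = 0.00085), about 1.97 and 1.96 times the control mean. The labels themselves differed by 0.0042, with a 95% interval from −0.32 to 0.33. MXD1 lies at chr2:70124820-70170077 on GRCh37, and 3.73% of its exon bases are shared with SNRNP27 on the same strand.

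MXD3, a repressor known for its expression in dividing cells, stood at 64.6, 57.2 and 66.8 TMM-scaled CPM in the control-labelled libraries and at 86.6, 77.8 and 60.8 with the A label. It stood at 31.3, 29.4 and 32.7 with the B label, below every other library. The B-label mean was 0.495 times control (log2 difference −0.99 ± 0.13, adjusted p = 0.0002), while the A-label difference of 0.24 had a 95% interval from −0.042 to 0.52 (adjusted p = 0.139). The A-label difference was called only without A-labelled replicate 3, at 0.38 (adjusted p = 0.0204). The labels differed by 1.23 ± 0.13 (adjusted p = 5.6e-05). MXD3 lies at chr5:176728462-176739758 on GRCh37. It shares 19.5% of its exon bases with RAB24 on the same strand and 24.2% with PRELID1 on the opposite strand. How reads in these shared bases were counted was not given in the sources used here, and the effect on the MXD3 level was not tested.

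MXD4, the fourth MXD gene, was lower with the A label. It stood at 10.4, 9.69 and 9.48 TMM-scaled CPM in the control-labelled libraries, at 6.38, 5.52 and 4.13 with the A label and at 7.65, 7.23 and 7.10 with the B label. All 3 groups were apart, with the B label between the other groups. The log2 difference was −0.79 ± 0.14 with the A label (adjusted p = 0.00077) and −0.38 ± 0.14 with the B label (adjusted p = 0.0573). The B-label difference was called with the replicate block (adjusted p = 0.0304), with totals alone (−0.58, adjusted p = 0.00881), and without A-labelled replicate 1 or 3 (adjusted p = 0.0479 and 0.0305). The difference between the labels, −0.41 (adjusted p = 0.0414), was lost with DESeq2 size factors, without the filter on low values, in both count tests, and without any library other than A-labelled replicate 1. It lies at chr4:2249159-2263836 on GRCh37.

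**Figure D2:**
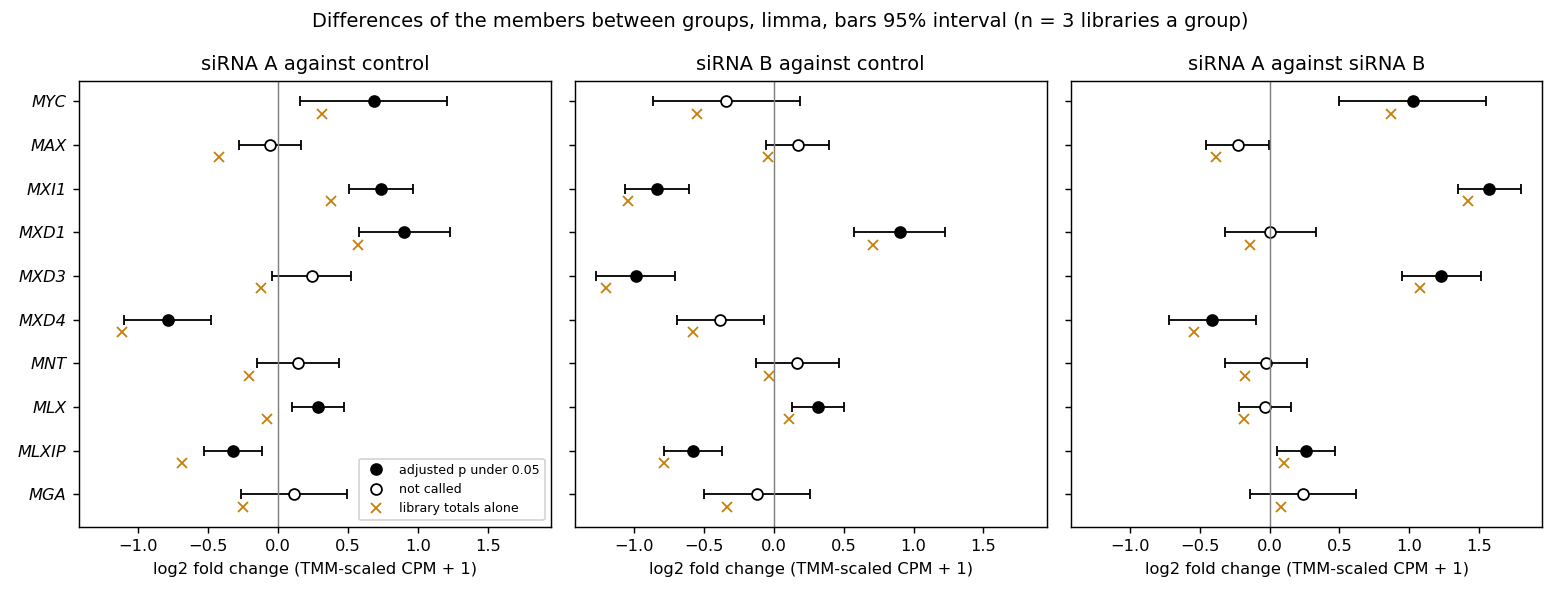
Log2 differences of the 10 members (horizontal axes) in the 3 comparisons, with 95% intervals, filled where called, and crosses for the values with library totals alone. MXI1 lies on opposite sides of 0 with the A and B labels (0.74 and −0.84), and MXD1 lies at 0.90 with both.

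Summed per kilobase of exon, the 4 MXD genes stood at 21.9 ± 0.931 TMM-scaled CPM per kb in control, at 29.0 ± 3.32 with the A label and at 13.1 ± 0.203 with the B label. The lowest A-labelled library, at 25.2, was above the highest control, at 22.5, and the highest B-labelled library stood at 13.3. MXD3 was the largest part in each group, at 60.6% ± 2.60 in control, 54.4% ± 3.64 with the A label and 50.1% ± 2.09 with the B label. MXI1 made up 27.8% ± 3.27, 35.5% ± 3.51 and 25.3% ± 1.68. MXD1 made up 5.0% ± 0.976, 7.49% ± 0.418 and 16.4% ± 0.519, and MXD4 made up 6.57% ± 0.321, 2.66% ± 0.288 and 8.13% ± 0.284. The MXD1 level per kb was alike with the A and B labels, at 2.16 and 2.15. MXD4 stood at 1.07 per kb with the B label against 1.43 in control, though its share was higher. These sums and shares use the union of annotated exons as the length and were not tested.

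**Figure D3:**
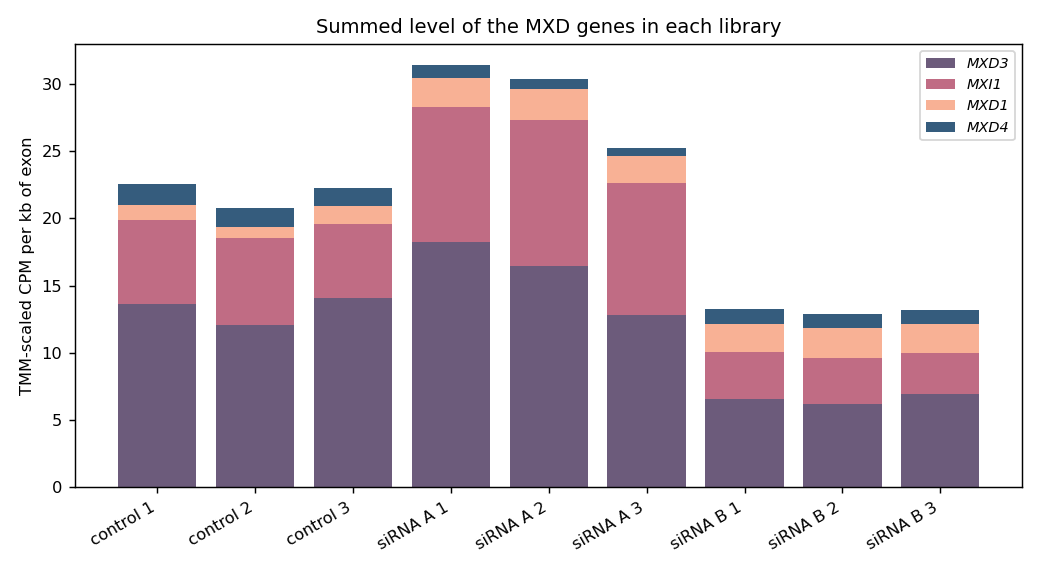
Stacked TMM-scaled CPM per kb of exon (vertical axis) of MXD3, MXI1, MXD1 and MXD4 in each of the 9 libraries. The B-labelled bars, at 12.9 to 13.3, are the shortest. The MXD1 segment is taller in the A-labelled and B-labelled bars than in control.

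MNT, a broadly expressed MAX partner and repressor, did not pass the test in any comparison. It stood at 14.9, 16.1 and 18.7 TMM-scaled CPM in the control-labelled libraries, at 18.1, 16.8 and 20.1 with the A label and at 16.5, 22.0 and 17.8 with the B label, with all groups overlapping. The A-label difference of 0.14 had a 95% interval from −0.15 to 0.44 and the B-label difference of 0.17 from −0.13 to 0.46. MGA, a MAX partner of the PRC1.6 complex with a T-box domain as well, overlapped too. It stood at 59.5, 79.0 and 73.7 in control, at 63.2, 83.0 and 84.1 with the A label and at 52.8, 83.2 and 61.0 with the B label, with replicate 1 lowest in each group. Its differences of 0.11 (−0.26 to 0.49) and −0.12 (−0.50 to 0.26) allow changes of either sign.

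MLX, the partner of the glucose-sensing branch, was higher with both labels on the TMM scale. It stood at 102, 105 and 103 TMM-scaled CPM in the control-labelled libraries, at 126, 124 and 129 with the A label and at 136, 124 and 127 with the B label, with no overlap with control. The log2 differences were 0.28 ± 0.085 (adjusted p = 0.0146) and 0.32 ± 0.085 (adjusted p = 0.0136). Both calls were lost with totals alone, where the differences were −0.081 and 0.11, and the B-label call was lost without B-labelled replicate 1 (adjusted p = 0.0689). MLX lies at chr17:40719090-40725257 on GRCh37, and 18.2% of its exon bases are shared with PSMC3IP on the opposite strand.

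MLXIP, which pairs with MLX, was lower with both labels. It stood at 76.8, 89.5 and 83.9 TMM-scaled CPM in the control-labelled libraries, at 62.6, 70.3 and 66.7 with the A label and at 54.8, 55.7 and 55.7 with the B label, with all 3 groups apart. The log2 differences were −0.32 ± 0.094 (adjusted p = 0.014) and −0.58 ± 0.094 (adjusted p = 0.00079). Leaving out control replicate 2 or A-labelled replicate 1 ended the A-label call, at adjusted p of 0.0539 and 0.0582. The difference between the labels, 0.26 (adjusted p = 0.0493), was lost with totals alone, with edgeR on recovered reads, and without any one of control replicate 3 and the 6 A- and B-labelled libraries. MLXIP lies at chr12:122516628-122631894 on GRCh37, and none of its exon bases are shared with another annotated gene.

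The ratio of MYC reads to the reads of each other member is free of any scaling between libraries. MYC had 5.10, 6.09 and 5.60 reads per MAX read in control, 6.43, 17.6 and 7.27 with the A label and 3.72, 4.32 and 3.72 with the B label, so the groups did not overlap. On the log2 scale the MYC to MAX ratio was 0.75 above control with the A label and −0.51 from control with the B label. The ratio of MYC to MXI1 lay at 10.7, 13.0 and 12.1 with the B label, above the control range of 7.20 to 9.70, and at 6.11, 12.4 and 6.50 with the A label, which spanned it. MYC to MXD1 was lower with the B label, at 16.2 to 19.0 against 35.6 to 59.6 in control, a log2 difference of −1.34. The largest A-label differences from control were those of MYC to MXD4, at 1.59, and MYC to MLXIP, at 1.01, both without overlap. The A-label differences for MXI1 and MXD1 were −0.068 and −0.32, with overlap. With 3 libraries against 3 an exact two-sided permutation test cannot go below p = 0.1, which the groups that do not overlap reach, so these ratios stand as a description.

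The genes most like MYC over the 9 libraries, by Pearson correlation of log2(TMM-scaled CPM + 1), were RGS2 (r = 0.98), MARS2 (0.97), ZBTB9 (0.97), ZNF45 (0.97) and ELOVL3 (0.97). RGS2 encodes a regulator of G protein signalling and MARS2 the mitochondrial methionyl-tRNA synthetase. Each stood highest in A-labelled replicate 2, as MYC did, with RGS2 at 41.2 TMM-scaled CPM there against 8.81 to 19.1 in the other 8 libraries. The correlations share this library and are a description.

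Of the 38 genes listed as activated MYC targets, which serve ribosome assembly, nucleotide synthesis, glycolysis and translation, 37 were tested. With the A label 28 were higher, 6 lower and 3 were not called, with a median log2 difference of 0.60 beside −0.023 for all genes. With totals alone the split was 12 higher and 7 lower, and without A-labelled replicate 2 it was 27 higher and 6 lower. With the B label 8 were higher, 3 lower and 26 not called (median 0.13). These are 91.9% and 29.7% of the list, beside 51.4% and 34.0% of all tested genes. With totals alone 0 were higher and 5 lower with the B label, and its count of 11 calls fell to 6 without control replicate 2 or B-labelled replicate 1 and to 7 without control replicate 3 or B-labelled replicate 3. PPAT, which starts purine synthesis, stood at 93.1 ± 7.86 TMM-scaled CPM in the control-labelled libraries, 195.3 ± 16.1 with the A label and 126 ± 17.6 with the B label (log2 differences 1.06 and 0.42, adjusted p = 3.9e-05 and 0.0185). The glycolytic gene ENO1, which has processed pseudogenes that could take some of its reads, stood at 1465 ± 114, 2892 ± 333 and 2211 ± 296 (0.98 and 0.59). BOP1, a ribosome assembly factor, went the other way, at 20.0 ± 2.78, 6.08 ± 1.61 and 9.20 ± 0.954 (−1.58 and −1.03). The B-label calls of PPAT and ENO1 were lost with totals alone, and that of PPAT also without control replicate 1 or B-labelled replicate 1 or 2 (adjusted p from 0.0574 to 0.0722). CCND2 did not pass the filter on low values.

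An E-box was held by 12 of the 31 activated targets with a window (38.7%), beside 10.1% of windows of tested genes. Genes repressed by MYC held it in 2 of 6 windows (33.3%), and cofactors and turnover factors of MYC in 3 of 13 (23.1%). SIN3 partners held it in 1 of 12, PRC1.6 partners in 1 of 9 and MLX-MLXIP targets in 1 of 2. The other E-box factors (7 windows) and the paralogues (3 windows) held 0. The difference between these shares was not tested. Among the listed genes named here, PPAT, the SIN3 partner RBBP4, the PRC1.6 gene YAF2 and the MLX-MLXIP target ARRDC4 held an E-box. Their stretches are shown because each belongs to a different arm of the network.
PPAT: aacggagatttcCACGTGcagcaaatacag
RBBP4: ccaaacctctctCACGTGaccctgaccggg
YAF2: gccggcgagggtCACGTGcgcccaggcagg
ARRDC4: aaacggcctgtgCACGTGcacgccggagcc
On GRCh38.p14 they lie at chr4:56435780-56435809 (minus strand), chr1:32650959-32650988 (plus), chr12:42238362-42238391 (minus) and chr15:97960481-97960510 (plus), with the E-box 182, 237, 131 and 210 bases before the start.

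**Figure D4:**
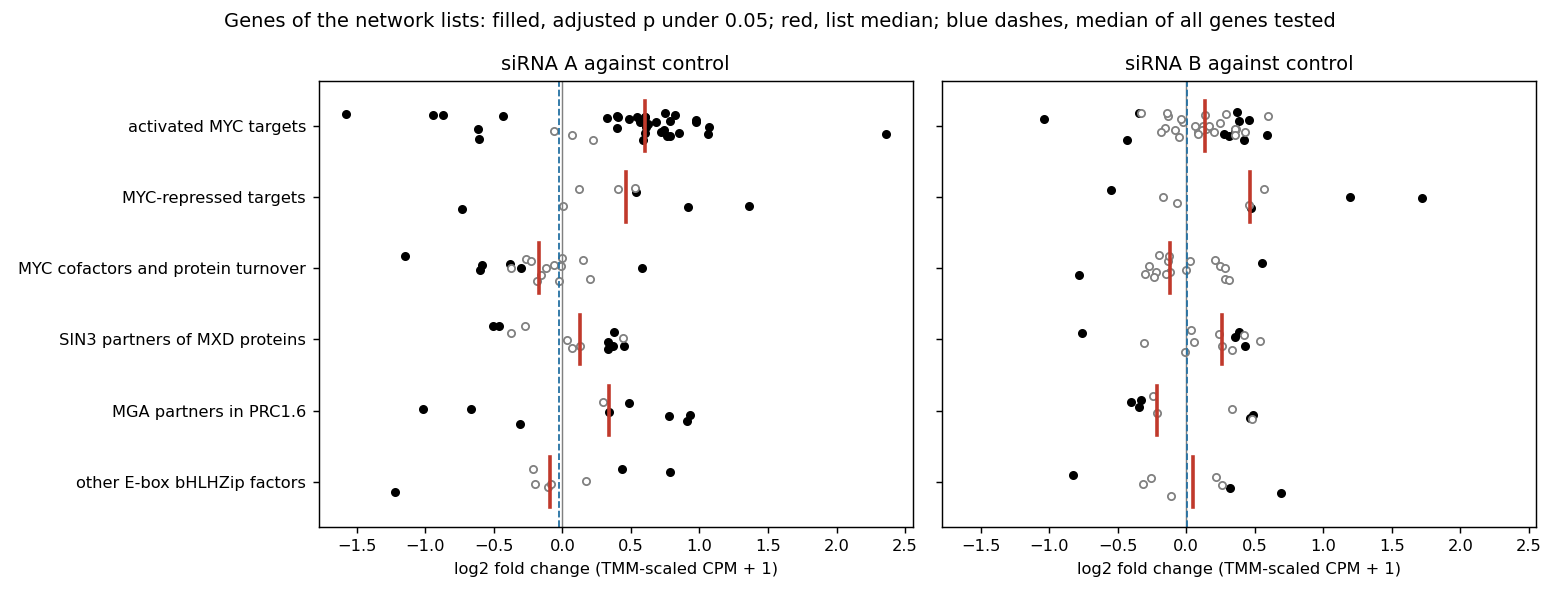
Log2 differences from control (horizontal axes) of the genes of 6 lists, filled where called, with the list median in red and the median of all tested genes in blue dashes. The activated MYC targets centre at 0.60 with the A label and at 0.13 with the B label.

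Of 8 genes known to be repressed by MYC, 3 were higher, 1 lower and 4 not called with the A label (median 0.47), and 3 were higher, 1 lower and 4 not called with the B label (median 0.47), beside 51.4% and 34.0% of all tested genes called. The A-label median was 0.22 without A-labelled replicate 2 and 0.11 with totals alone, where 2 were higher and 1 lower. Without A-labelled replicate 2 the B-label count was 5 higher and 1 lower. CDKN1A, which encodes the cell cycle inhibitor p21, stood at 188 ± 5.52 TMM-scaled CPM in the control-labelled libraries, at 356 ± 49.6 with the A label and at 620 ± 22.1 with the B label. Its log2 differences were 0.91 ± 0.11 (adjusted p = 5.7e-05) and 1.72 ± 0.11 (adjusted p = 1.7e-06), and the labels differed by −0.81 (adjusted p = 0.00025). CDKN1B, the p27 gene, stood at 38.8 ± 4.90, 56.7 ± 4.99 and 54.3 ± 6.97 (0.54 and 0.47, adjusted p = 0.0044 and 0.0146), both calls were lost with totals alone, and the B-label call also without control replicate 2 (adjusted p = 0.0814) or B-labelled replicate 1 (0.0571).

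Among 18 cofactors and turnover factors of MYC, 1 was higher, 5 were lower and 12 not called with the A label (median −0.17), and 1 was higher, 1 lower and 16 not called with the B label (median −0.12). The shares called, 33.3% and 11.1%, stand beside 51.4% and 34.0% of all tested genes. The B-label count of 2 became 5 with the replicate block, 4 with DESeq2 size factors or DESeq2 on recovered reads, and 5 without B-labelled replicate 2. With totals alone 0 were higher and 13 lower with the A label, and 0 higher and 6 lower with the B label. Without A-labelled replicate 2 the A-label count was 1 higher and 3 lower. EP400, a chromatin remodeller that MYC recruits, stood at 103 ± 16.0 TMM-scaled CPM in the control-labelled libraries, 45.3 ± 4.21 with the A label and 58.8 ± 5.75 with the B label (−1.15 and −0.78, adjusted p = 4e-05 and 0.00091). CIP2A, which protects MYC from dephosphorylation, stood at 71.9 ± 10.8, 108 ± 10.5 and 106 ± 17.3 (0.58 and 0.55, adjusted p = 0.0045 and 0.0099), and both calls were lost with totals alone.

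Of 13 SIN3 corepressor genes 5 were higher, 2 lower and 6 not called with the A label (median 0.13), and 3 were higher, 1 lower and 9 not called with the B label (median 0.26). These are 53.8% and 30.8% of the list, beside 51.4% and 34.0% of all tested genes, and the A-label count of 7 fell to 4 without A-labelled replicate 3. With totals alone 0 were higher and 5 lower with the A label, and 0 higher and 2 lower with the B label. HDAC2, a histone deacetylase of the complex, stood at 205 ± 26.6, 265 ± 15.8 and 269 ± 37 TMM-scaled CPM in the control-labelled libraries and with the A and B labels (0.37 and 0.39). RBBP4, a histone chaperone, stood at 116 ± 7.46, 151 ± 9.41 and 150 ± 13.4 (0.37 and 0.36). The calls of both genes were lost with totals alone, at 0.0058 and 0.18 for HDAC2 and at 0.0057 and 0.15 for RBBP4. HDAC2 lost its A-label call without control replicate 2 or A-labelled replicate 1 or 3 (adjusted p from 0.0671 to 0.124) and its B-label call without control replicate 1 or 2 or B-labelled replicate 2 or 3 (from 0.0501 to 0.16). RBBP4 lost its B-label call without control replicate 1 or 3 or B-labelled replicate 2 (from 0.0507 to 0.0688). BRMS1 was lower, at 52.7 ± 5.23, 38.0 ± 4.20 and 31.0 ± 5.74 (−0.46 and −0.76, adjusted p = 0.0188 and 0.0021). BRMS1 was no longer called with the A label when control replicate 1 (adjusted p = 0.0648) or A-labelled replicate 3 (adjusted p = 0.0792) was left out.

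Of 9 PRC1.6 partners of MGA, 5 were higher, 3 lower and 1 not called with the A label (median 0.34), and 2 were higher, 3 lower and 4 not called with the B label (median −0.22). These are 88.9% and 55.6% of the list, beside 51.4% and 34.0% of all tested genes. The B-label count of 5 fell to 2 without control replicate 2 and to 3 without A-labelled replicate 1 or 3. With totals alone 2 were higher and 3 lower with the A label, and 0 higher and 5 lower with the B label. TFDP1, the dimer partner of E2F proteins, stood at 152 ± 12.1 TMM-scaled CPM in the control-labelled libraries, at 74.8 ± 4.76 with the A label and at 115 ± 10.0 with the B label (−1.02 and −0.40). The ubiquitin ligase gene RING1 stood at 36.9 ± 2.03, 71.4 ± 8.39 and 52.3 ± 4.22 (0.93 and 0.49), and YAF2, which binds it, at 15.2 ± 2.47, 29.1 ± 1.09 and 21.1 ± 0.427 (0.91 and 0.46). The B-label calls of RING1 and YAF2 were lost with totals alone, and that of YAF2 also without control replicate 2 (adjusted p = 0.0616).

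Of the MLX-MLXIP targets, TXNIP is not analysed here and ARRDC4, an arrestin family gene, stood at 8.38 ± 2.43 TMM-scaled CPM in the control-labelled libraries, 6.67 ± 0.401 with the A label and 10.7 ± 1.24 with the B label (−0.26 and 0.35, adjusted p = 0.262 and 0.164). Leaving out control replicate 2 gave an A-label call at −0.49 (adjusted p = 0.0186), and so did totals alone at −0.58 (adjusted p = 0.0149). Between the labels ARRDC4 differed by −0.60 (adjusted p = 0.0225), a call lost without A-labelled replicate 1 or 2 or B-labelled replicate 1. Among 8 other E-box factors of the same protein class, 2 were higher, 1 lower and 5 not called with the A label (median −0.094), and again 2 higher and 1 lower with the B label (median 0.051). This is 37.5% of the list with each label, beside 51.4% and 34.0% of all tested genes. With totals alone 1 was higher and 4 were lower with each label. TFE3, a regulator of lysosome genes, stood at 16.8 ± 1.10, 23.1 ± 2.82 and 27.7 ± 1.82 (0.43 and 0.69, adjusted p = 0.0091 and 0.001), and the A-label call was lost with totals alone. SREBF2, the regulator of cholesterol synthesis, was chosen after its values were seen, at 147 ± 17.1, 254 ± 15.5 and 82.3 ± 2.56 (0.79 and −0.82, adjusted p = 9.6e-05 and 0.00015). It moved in opposite directions with the labels, as MXI1 did, and both calls were kept in every setting tried.

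The listed paralogues outside the 10 genes were MYCN, MYCL and MLXIPL. MYCN was at 0 in every library, with 3 reads as the level that a count of 0 allows. MYCL stood at 5.41 ± 0.0886 TMM-scaled CPM in the control-labelled libraries, at 2.90 ± 0.507 with the A label and at 4.59 ± 0.503 with the B label (−0.72 and −0.20, adjusted p = 0.001 and 0.279). MLXIPL, the ChREBP gene, stood at 14.3 ± 0.654, 10.2 ± 1.01 and 16.8 ± 0.676 (−0.45 and 0.22, adjusted p = 0.0055 and 0.146).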

How the data were processed

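RNA-seq libraries of HCT116 cells (9, in 3 groups of 3 by the labels) were read as single ends of 50 bases. The authors deposited 1 table in CPM, in which reads per gene are scaled to a common library total. The submitters' processing notes name TopHat2, HTSeq and GRCh37 (hg19); overlap and strand handling were not given in the sources used here. The CPM steps gave whole reads for 100% of values (tolerance 0.001).

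Identifiers were matched to GENCODE on GRCh37 (14871 of 15354). Genes at 1 CPM or more in at least 3 libraries (13893) were tested with limma 3.58.1 (R 4.3.3), with a variance trend, on log2(CPM + 1) after TMM scaling (edgeR 4.0.16), in 1 model of 3 group means, with Benjamini-Hochberg adjustment over all tested genes and a threshold of 0.05. A fold change on this scale understates that of low genes. Alternatives were library totals, DESeq2 1.42.0 size factors, a pseudocount of 0.1, no filter, edgeR and DESeq2 on the recovered reads, a replicate block and leaving out each library. The floor of 3 reads was 0.129 to 0.193 CPM and, like the counting errors given, covers counting error only; the 95% intervals are from limma and rest on the spread between libraries. The members and gene lists were chosen with earlier results of these data known. All 10 members were named. From each list the 3 genes with the largest differences among those called in the same direction with both siRNAs were named, together with lists of up to 3 genes in full, the 5 genes most like MYC, and SNHG5.

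Across genes, the deviations of libraries with the same number from their group means had correlations of 0.65, 0.41 and 0.13 between control and siRNA A. Between control and siRNA B they were 0.17, 0.44 and −0.39, and between the siRNAs 0.20, 0.44 and 0.02. Libraries with different numbers were not compared and the labels state no pairing, so whether the numbers pair the libraries was not settled. Same-group libraries differed by at least 13.0 chi-square units per degree of freedom, so none was a repeat of another.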

Additional observations from a re-analysis of the deposited data

Results flagged for a closer look

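The effect of the A and B labels differed for 5 of the 10 members, by the test of the A label against the B label. In this comparison 37.1% of all tested genes were called, and the members' share lies near this background. The log2 differences were 1.57 for MXI1, 1.23 for MXD3, 1.02 for MYC, −0.41 for MXD4 and 0.26 for MLXIP. Those of MXI1, MXD3 and MYC were called in every setting tried, and those of MXD4 and MLXIP were lost in most. With 1 library left out, 3 to 4 members were called between the labels. Both labels share the control libraries, and SNHG5 was higher with each, by 1.29 and 0.83.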

How the results depend on the processing

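Of 210 member differences under another scaling, pseudocount, filter, test or block, 191 kept their direction and side of the threshold, 8 lost and 4 gained a call, and 7 reversed. Of 270 without 1 library, 236 stayed, 22 lost and 4 gained a call, and 8 reversed. With library totals the reversed values with the A label were −0.12 (MXD3), −0.21 (MNT), −0.081 (MLX) and −0.25 (MGA), with the B label −0.039 (MAX) and −0.033 (MNT), and between the labels −0.14 (MXD1). Without 1 library, values that changed sign ran from −0.13 to 0.023 (MAX, A label), from −0.30 to 0.012 (MGA, B label) and, between the labels, from −0.037 to 0.061 (MXD1), from −0.10 to 0.085 (MNT) and from −0.057 to 0.013 (MLX); none of these was called. Genes called numbered 7145, 4719 and 5155 for the A label, the B label and the difference between them, and 6018 to 7679, 3471 to 4938 and 4009 to 5124 without 1 library. Members called without 1 library numbered 4 to 7, 4 to 6 and 3 to 4, and edgeR on recovered reads gave 3 for the difference between the labels. Genes of all lists called with the B label numbered 29, and 18 to 34 without 1 library, the lowest without control replicate 2. With the replicate block 6, 6 and 5 members were called, the gain being MXD4 with the B label, and the block changed no other member's call. Of 880 differences of the other named genes 827 kept direction and call, 41 lost and 12 gained a call, and 0 reversed. The cause was not tested. Depth limits the low members MXD4 and MXD1, whose least covered libraries held 73 and 120 reads.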
